A study of Mus musculus with 4 samples.

Results

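Binding of CTCF, a DNA-binding protein that stops cohesin-driven loop extrusion, and of RAD21, which belongs to the cohesin complex, was described around 10 genes for secreted signals of axis elongation. The genes were the Wnt ligands Wnt3a, Wnt5a and Wnt8a, the Wnt-enhancing ligand Rspo3, the fibroblast growth factors Fgf3, Fgf4, Fgf8, Fgf15 and Fgf17, and the TGF-beta family ligand Gdf11. They were chosen by name, out of 21326 protein-coding genes whose surroundings could be measured. Peaks were assigned to a gene where the summit lay in the gene body or within 50 kb of it. Peaks of the 3 CTCF lists that overlapped by 1 bp or more were joined to sites, which gave 57 CTCF sites near the 10 genes, of 56026 in the genome.

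The material was gastruloids, aggregates of mouse embryonic stem cells that elongate along a body axis in the dish. They were collected 96 h after aggregation, pooled, and fixed in 1% formaldehyde. Chromatin was profiled by ChIPmentation, in which Tn5 transposase adds adapters to chromatin held on antibody beads, with antibodies to CTCF or RAD21. CTCF was profiled in mutants here called DelCBS7-10 and InsCBS5-10 and in wild type. RAD21 was profiled in InsCBS5-10. Both mutants carry 1 HoxB allele written as Del, a deletion of the cluster, opposite an allele with Del(i9-13) and Ins(CBS5-10), which lacks i9-13 and carries inserted CTCF binding sites. DelCBS7-10 has Del(CBS7-10) on top of these changes. The study asks about insulation of Hoxb13 by CTCF and tail length. None of the 10 genes lies at HoxB, so all were read at unedited sequence. There was 1 library per group, so no difference between genotypes has a replicate check, no p-value is given, and the labels do not say how many gastruloids or clones each pool held.

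Tail growth depends on progenitors at the posterior end of the embryo that keep adding neural tube and somites. Wnt signals act there through Frizzled and Lrp receptors and beta-catenin, Fgf signals act through Fgf receptors and the MAP kinase pathway, and each sustains the other. Gdf11 acts through activin receptors and Smad proteins, and is known for ending trunk formation and starting that of the tail. CTCF sites held by cohesin commonly lie at the borders of the chromatin domains in which a gene and its enhancers meet. Peaks of these proteins measure neither gene activity nor contacts.

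The lists held 36589 CTCF peaks in DelCBS7-10, 34499 in InsCBS5-10 and 47931 in wild type, and 19610 RAD21 peaks in InsCBS5-10. A further RAD21 list of 59484 peaks has no sample of its own. Its peak names read RAD21, wild type and 96 h, but no sample label backs them, so it is described as the authors' list and kept apart from the 4 groups. Read depth is unknown from peak lists, and a peak absent from a list was not called there. The strength of a peak is the authors' fold enrichment over background in its own library. It is given with its percentile, the percentage of peaks in the same list that were as strong or weaker, since folds of different lists have no common scale. The median fold was 5.30 in DelCBS7-10, 5.56 in InsCBS5-10 and 5.60 in wild type for CTCF, and 6.17 in InsCBS5-10 RAD21. On chromosome 11, which holds Wnt3a, reads were aligned to 2 versions of the chromosome, so folds there are not comparable with those on other chromosomes.

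All 10 genes had CTCF peaks within 50 kb in each of the 3 genotypes, and RAD21 peaks in both RAD21 lists. Of all protein-coding genes, 85.4% had such a CTCF peak in DelCBS7-10, 84.3% in InsCBS5-10, 89.6% in wild type and 82.3% in all 3 lists. The background was 75.8% for RAD21 in InsCBS5-10 and 91.3% in the RAD21 list without a sample. With so high a background, a full count of 10 says little about these genes. They had a median of 5.0 CTCF peaks in DelCBS7-10, 4.5 in InsCBS5-10 and 7.0 in wild type, beside 3, 3 and 4 over all protein-coding genes. RAD21 in InsCBS5-10 gave a median of 3.0 peaks per gene beside 2 over all genes, and the list without a sample 10.5 beside 5. Peaks shared by Fgf3, Fgf4 and Fgf15 count for each of these genes, and the genes compared were not matched for length. The number of CTCF sites per gene ran from 2 at Rspo3 and 3 at Wnt5a to 11 at Wnt3a and 11 at Fgf15.

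**Figure D1:**
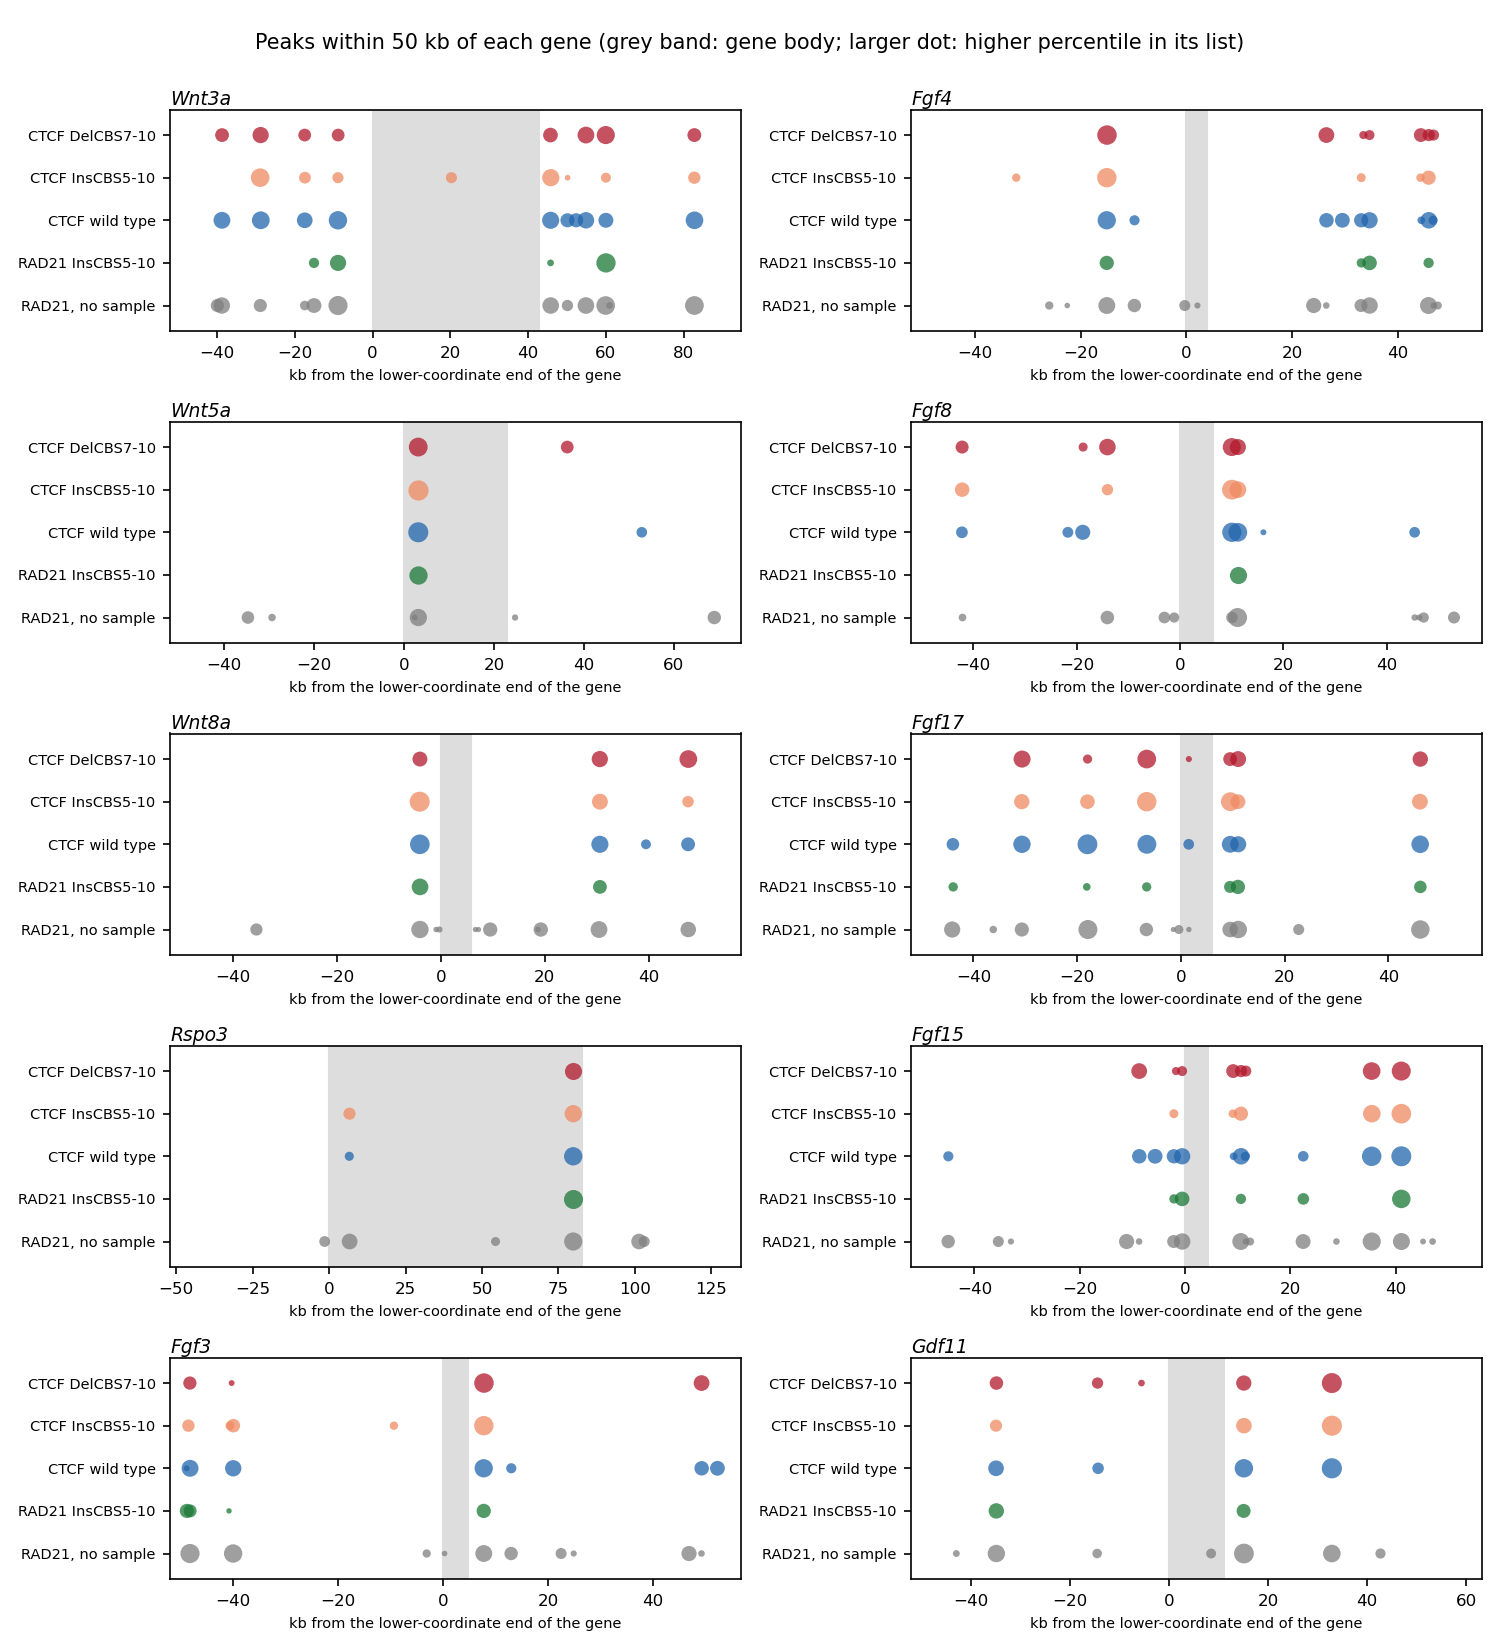
Peaks within 50 kb of each of the 10 genes, by list. The x axis is the distance in kb from the lower-coordinate end of the gene, the grey band is the gene body, each dot is a peak, and larger dots have a higher percentile of fold enrichment in their list. Wnt5a and Rspo3 have few CTCF peaks, with the strongest inside the gene, while the Fgf3, Fgf4 and Fgf15 windows overlap and share 10 CTCF sites.

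Wnt3a, which drives paraxial mesoderm formation in the tailbud and whose loss truncates the mouse axis, had 11 CTCF sites (gene at chr11:59248036-59290751, minus strand, GRCm38.p6). Of these, 6 were called in all 3 genotypes, 3 in 2 and 2 in 1. The site nearest to the annotated start lay 3.08 kb upstream of it, outside any protein-coding gene, at chr11:59293593-59294002. Its CTCF fold was 5.23 in DelCBS7-10 (percentile 48.5), 6.83 in InsCBS5-10 (69.4) and 7.78 in wild type (68.4). Among peaks of chromosome 11 alone, these percentiles were 46.9, 71.9 and 59.7, so the wild-type rank was lower by that measure. RAD21 in InsCBS5-10 was weak there, at 3.29 and percentile 5.0. Beyond the other end of the gene, the site 8.88 kb away had a CTCF fold of 4.54 in DelCBS7-10 (35.1), 4.12 in InsCBS5-10 (25.1) and 9.47 in wild type (80.1). This site was therefore strong in the wild-type list and below the median in both mutant lists. Within chromosome 11, its percentiles were 33.4 in DelCBS7-10, 21.6 in InsCBS5-10 and 74.9 in wild type. RAD21 was called there at 6.94 in InsCBS5-10 (60.6), and at 8.15 in the RAD21 list without a sample (87.0).

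The strongest RAD21 peak near Wnt3a had a fold of 9.99 in InsCBS5-10 (percentile 88.8) and lay 17.2 kb upstream, inside the neighbouring Wnt ligand gene Wnt9a. CTCF at that site had a fold of 6.98 in DelCBS7-10 (77.4), 3.77 in InsCBS5-10 (19) and 5.64 in wild type (50.5). Within chromosome 11, these percentiles were 82.1, 15.1 and 39.0. The order of the genotypes by percentile thus differed between neighbouring sites of the same gene. An InsCBS5-10 CTCF peak inside Wnt3a, at 4.12 and percentile 25.1, was called in neither of the other genotypes. On the lower-coordinate side of Wnt3a, a RAD21 peak at chr11:59232774-59233154 was called in both RAD21 lists and overlapped no CTCF peak of any genotype. Its fold was 4.33 in InsCBS5-10.

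Wnt5a, a ligand of beta-catenin-independent Wnt signalling whose loss shortens the mouse body axis, had a different layout (chr14:28504543-28527448). It had 3 CTCF sites, and 1 of them, inside the gene at chr14:28507485-28507986, was called in all 3 genotypes. The CTCF fold of that site was 7.55 in DelCBS7-10 (percentile 84.1), 11.01 in InsCBS5-10 (97.6) and 13.7 in wild type (96.4). It was the strongest InsCBS5-10 CTCF site near any of the 10 genes. RAD21 had a fold of 8.63 there in InsCBS5-10 (79.1) and 5.71 in the list without a sample (69.6). The other sites were called in a single genotype each. A DelCBS7-10 peak 13.4 kb beyond the gene had a fold of 4.54 (35.1), and a wild-type peak 29.9 kb beyond it had a fold of 3.42 (22.2). Neither overlapped a RAD21 peak.

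Wnt8a, a ligand made in the primitive streak, had 4 CTCF sites, and 3 of them were called in all 3 genotypes (gene at chr18:34542327-34548061). The site 4.00 kb from the gene at its lower-coordinate side had a CTCF fold of 5.33 in DelCBS7-10 (percentile 50.4), 10.1 in InsCBS5-10 (95.7) and 11.9 in wild type (91.8). In DelCBS7-10 this was a peak of middling strength, while it was near the top of the InsCBS5-10 and wild-type lists. A site inside Nme5, 24.9 kb beyond the other end, was close to even over the genotypes, at percentiles of 61.0 in DelCBS7-10, 58.2 in InsCBS5-10 and 68.5 in wild type. Both sites had RAD21 in InsCBS5-10, with folds of 7.25 (64.7) and 5.66 (42.2). The site in Brd8dc, 41.9 kb away, stood higher in DelCBS7-10, at percentile 74.0, than in InsCBS5-10 at 27.3 or wild type at 42.6.

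Rspo3, an R-spondin that raises Wnt signalling by binding Lgr receptors and the ubiquitin ligases Znrf3 and Rnf43, had 2 CTCF sites, and both were inside the gene (chr10:29453106-29535867). The site at chr10:29532771-29533182 was called in all 3 genotypes, with a CTCF fold of 6.33 in DelCBS7-10 (percentile 68.2), 6.86 in InsCBS5-10 (70.1) and 9.40 in wild type (79.6). RAD21 at this site had a fold of 9.54 in InsCBS5-10, which put it at percentile 86.0. The other site was weak, with a fold of 4.46 in InsCBS5-10 (31.1) and 3.11 in wild type (14.6). It was not called in DelCBS7-10. Rspo3 and Wnt5a were the members with a CTCF-RAD21 site inside the gene in InsCBS5-10, a feature of 23.4% of protein-coding genes.

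Fgf3, Fgf4 and Fgf15 lie next to each other on chromosome 7 and are treated together, since their windows shared 10 of 16 CTCF sites. Loss of Fgf3 gives mice a short, curled tail. Fgf4 acts with Fgf8 to keep the presomitic mesoderm undifferentiated. Fgf15 is the mouse counterpart of human FGF19, a hormone-like Fgf that is also made in the embryo. RefSeq promoter sequence (GRCm38.p6) was at hand for Fgf3 and Fgf4. Both are shown because they are the starts of neighbouring genes and differed in 1 call. The Fgf4 promoter overlapped a RAD21 peak of the list without a sample, and the Fgf3 promoter overlapped no peak of any list. Each runs 5′ to 3′ on the plus strand, from 250 bases before the annotated start to 50 bases after it, and capitals mark the transcribed bases.
Fgf4, chr7:144861136-144861435: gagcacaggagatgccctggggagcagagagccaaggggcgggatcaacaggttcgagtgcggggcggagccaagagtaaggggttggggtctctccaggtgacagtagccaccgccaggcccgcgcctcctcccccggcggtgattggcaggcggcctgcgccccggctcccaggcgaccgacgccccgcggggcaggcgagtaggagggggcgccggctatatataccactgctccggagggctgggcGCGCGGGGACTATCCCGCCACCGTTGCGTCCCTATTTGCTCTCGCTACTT
Fgf3, chr7:144838362-144838661: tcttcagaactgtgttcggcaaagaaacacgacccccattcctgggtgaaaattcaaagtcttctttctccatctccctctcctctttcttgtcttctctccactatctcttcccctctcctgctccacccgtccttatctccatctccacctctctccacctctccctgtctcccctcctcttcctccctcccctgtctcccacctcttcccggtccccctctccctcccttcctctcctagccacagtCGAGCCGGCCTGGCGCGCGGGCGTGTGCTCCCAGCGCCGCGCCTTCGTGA
The RAD21 peak over the Fgf4 promoter had a fold of 3.20 (percentile 24.5) and ended within the printed window. RAD21 of InsCBS5-10 and CTCF of any genotype were not called in either window. The GC content was 69.7% at Fgf4 and 59.3% at Fgf3. The nearest CTCF summit lay 9802 bp from the start of Fgf4 and 7723 bp from that of Fgf3.

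CTCF peaks at gene starts were uncommon in these lists. Of 32135 RefSeq promoters of this length, 7.69% overlapped a CTCF peak of any genotype, 1.82% a RAD21 peak of InsCBS5-10 and 28.6% a RAD21 peak of the list without a sample. The promoter table held 4 of the 10 genes, namely Wnt3a, Fgf3, Fgf4 and Gdf11, and none of these 4 promoters overlapped a CTCF peak.

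The strongest CTCF site of the Fgf3 to Fgf15 region in DelCBS7-10 lay between Fgf3 and Fgf4, at chr7:144846075-144846875, outside any protein-coding gene. Its CTCF fold was 8.34 in DelCBS7-10 (percentile 90.6), 8.79 in InsCBS5-10 (89.6) and 9.32 in wild type (79.1). It was thus a strong peak in each genotype, and RAD21 was called there in InsCBS5-10 at 5.88 (45.4). It was 2.99 kb from the end of Fgf3 and 15.1 kb from the start of Fgf4. On the far side of Fgf15, a site at chr7:144937456-144937861 in Ccnd1, the cyclin D1 gene, had a CTCF fold of 7.78 in DelCBS7-10 (86.1), 9.17 in InsCBS5-10 (91.8) and 13.1 in wild type (95.3). RAD21 in InsCBS5-10 was strong there too, at 8.89 (81.3).

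Fgf15 itself (chr7:144896532-144900953) sat among several weaker sites. The nearest, 535 bp from its lower-coordinate end at chr7:144895833-144896143, had a CTCF fold of 3.77 in DelCBS7-10 (percentile 19) and 6.91 in wild type (61.4), and no CTCF peak in InsCBS5-10. RAD21 was nonetheless called there in InsCBS5-10, at 6.03 (47.9), and in the list without a sample, at 5.06 (62.5). The next site, 2.11 kb from the gene, was called in all 3 genotypes, at percentiles of 10.3 in DelCBS7-10, 13.9 in InsCBS5-10 and 45.3 in wild type. Another site 4.73 kb beyond the gene had the opposite order, at percentiles of 42.6 in DelCBS7-10, 11.9 in InsCBS5-10 and 8.6 in wild type, and no RAD21 in either list. Fgf3 (chr7:144838612-144843348) and Fgf4 (chr7:144861386-144865245) held no CTCF peak inside the gene, nor did Fgf15.

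Fgf8, the main caudal Fgf ligand together with Fgf4, had 8 CTCF sites (chr19:45736491-45742941), of which 3 were called in all 3 genotypes. A pair of strong sites lay just beyond the higher-coordinate end of the gene. The nearer, 3.59 kb away, had a CTCF fold of 6.93 in DelCBS7-10 (percentile 76.5), 9.44 in InsCBS5-10 (93.1) and 11.1 in wild type (88.6), with no RAD21 peak in InsCBS5-10. The next, 4.76 kb away in Npm3, had a CTCF fold of 5.82 in DelCBS7-10 (59.4), 6.57 in InsCBS5-10 (65.8) and 9.97 in wild type (83.0). RAD21 was called at this weaker CTCF site, with a fold of 7.59 in InsCBS5-10 (68.8). Of the 57 sites, 1 (1.75%, beside 1.44% of all CTCF sites) was called in both mutants and not in wild type. It lay 14.0 kb from Fgf8 on its lower-coordinate side, at chr19:45722360-45722625, with a fold of 6.07 in DelCBS7-10 (63.9) and 4.18 in InsCBS5-10 (26.2). It had no RAD21 peak in InsCBS5-10, but overlapped one of the list without a sample at 3.77 (40.4).

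Fgf17, an Fgf8-related ligand also made in the tailbud, had 8 CTCF sites (chr14:70636203-70642268). Of these, 6 were called in all 3 genotypes and 5 of those 6 had RAD21 in InsCBS5-10, the most of any member. The RAD21 peaks were of low rank, at most percentile 45.9. A site in Dmtn, 18.0 kb from the gene, spread widely over the genotypes, with a CTCF fold of 3.54 in DelCBS7-10 (percentile 14.9), 5.44 in InsCBS5-10 (47.8) and 12.6 in wild type (93.8). RAD21 there had a fold of 3.55 in InsCBS5-10 (8.4) and 8.01 in the list without a sample (86.2). In contrast, the Dmtn site 6.55 kb from the gene was strong in each genotype, at percentiles of 83.0 in DelCBS7-10, 90.1 in InsCBS5-10 and 85.0 in wild type. A weak peak inside Fgf17 was called in DelCBS7-10 at percentile 2.8 and in wild type at 22.9.

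Gdf11 (chr10:128880524-128891718, minus strand) had 5 CTCF sites, of which 3 were called in all 3 genotypes. The site at chr10:128912990-128913629 in Rdh5, 21.7 kb upstream of the annotated start, was the strongest near any of the 10 genes in DelCBS7-10 and in wild type. Its CTCF fold was 9.35 in DelCBS7-10 (percentile 95.6), 10.5 in InsCBS5-10 (96.6) and 14.4 in wild type (97.5). No RAD21 peak was called at it in InsCBS5-10, while the list without a sample had one at 6.06 (72.8). A closer site, 3.94 kb upstream of the start at chr10:128895450-128896004, had both proteins. Its CTCF fold was 5.49 in DelCBS7-10 (53.2), 5.92 in InsCBS5-10 (55.7) and 9.56 in wild type (80.6), and its RAD21 fold was 5.76 in InsCBS5-10 (43.6). A DelCBS7-10 peak in Sarnp, 5.53 kb beyond the other end of the gene, was close to the bottom of its list, at percentile 4.8, and was in no other list.

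**Figure D2:**
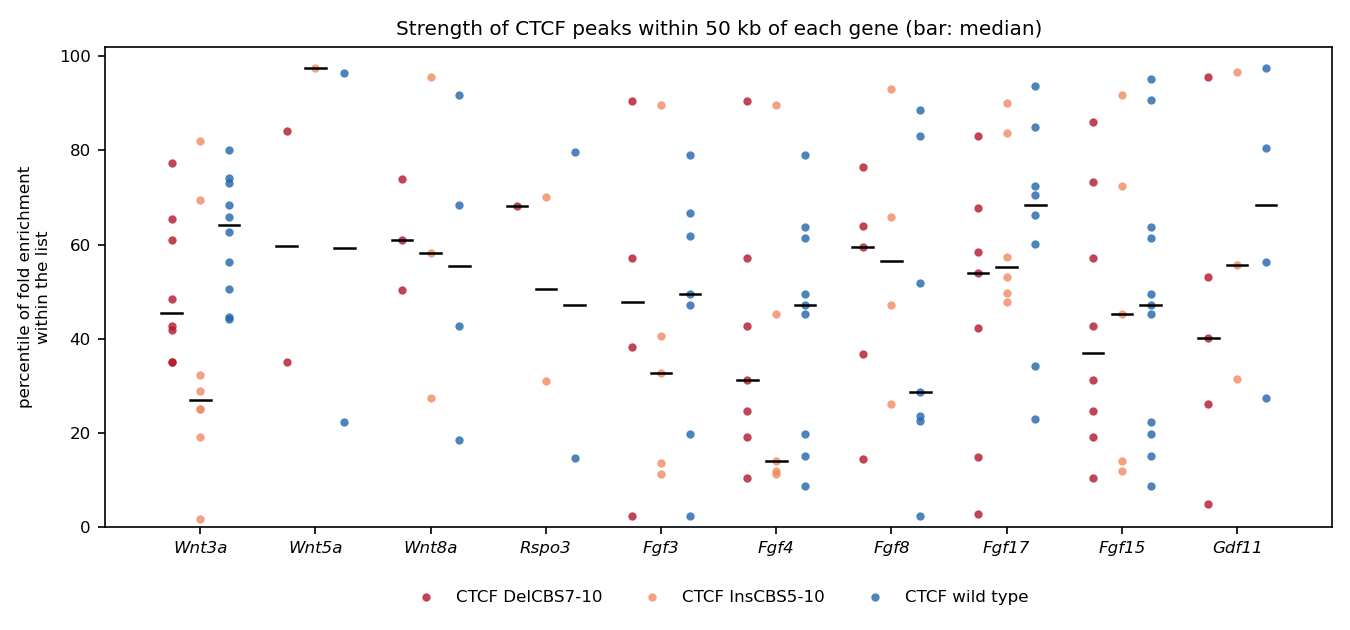
Percentile of fold enrichment of each CTCF peak within 50 kb of each gene, within its own list, by genotype. Dots are peaks and bars are medians over the peaks of a gene, and the peaks are not replicates. Wnt5a, Wnt8a, Fgf15, Fgf17 and Gdf11 each have a peak above percentile 90 in InsCBS5-10 and in wild type.

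Across the 10 genes, 31 of the 57 CTCF sites were called in all 3 genotypes, which is 54.4% (95% exact Clopper-Pearson interval 40.7 to 67.6%, counting error only), beside 49.0% of all CTCF sites. A further 11 sites were called in 2 genotypes and 15 in 1. Sites of wild type alone made up 17.5%, beside 24.4% of all sites. Those of DelCBS7-10 alone were 3.51% beside 7.53%, and those of InsCBS5-10 alone 5.26% beside 5.89%. DelCBS7-10 with wild type gave 14.0% beside 6.92%, InsCBS5-10 with wild type 3.51% beside 4.76%, and both mutants 1.75% beside 1.44%. Sites of all 3 lists were the stronger ones, with median percentiles of 54.0 in DelCBS7-10, 55.7 in InsCBS5-10 and 72.5 in wild type. Sites of 1 or 2 lists had medians of 26.2, 19.4 and 25.5 in the same order. Whole lists showed the same pattern. For instance, all wild-type peaks found in DelCBS7-10 had a median percentile of 66.1, and those missing from it 21.6.

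Mutant peaks mostly had a wild-type counterpart, both near the 10 genes and in the whole lists, and the wild-type list was the longest. Of 42 DelCBS7-10 peaks, 3 had no overlapping peak in wild type (7.14%, interval 1.5 to 19.5%), beside 14.0% of the whole list. These were the Fgf8 site at 14.0 kb, the Wnt5a site at 13.4 kb and the Gdf11 site in Sarnp. Of 37 InsCBS5-10 peaks, 4 were missing from wild type (10.8%, 3.03 to 25.4%), beside 12.3% of the whole list. These were the same Fgf8 site, the peak inside Wnt3a, and 2 peaks at 9.37 kb and 40.6 kb from Fgf3. The last had RAD21 in InsCBS5-10, at 2.72 and percentile 0.9. It lay at chr7:144797919-144798214, next to a site at chr7:144798272-144798736 that was called in all 3 genotypes, at percentile 61.8 in wild type. All 4 were in the lower part of their list, at percentile 26.2 or less.

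In the other direction, 12 of 52 wild-type peaks were missing from DelCBS7-10 (23.1%, 12.5 to 36.8%), beside 34.2% of the whole list. From InsCBS5-10, 18 of 52 were missing (34.6%, 22.0 to 49.1%), beside 36.8%. The missing wild-type peaks had a median percentile of 22.4 in the first case and 25.5 in the second. Beside these, the median of missing peaks over the whole list was 21.6 in both cases. The strongest missing peaks near the 10 genes were at 49.4 and 65.9. By percentile in the whole list, the strongest wild-type peak missing from InsCBS5-10 was a Wnt3a site 38.7 kb away in 2310033P09Rik. Among peaks of its own chromosome it stood at 57.1. The missing wild-type peak 535 bp from Fgf15 stood at 58.5 on its chromosome, so the order of these peaks is not settled. Between both mutants, 10 of 42 DelCBS7-10 peaks were missing from InsCBS5-10 (23.8%, 12.1 to 39.5%), beside 22.3% of the whole list. Of 37 InsCBS5-10 peaks, 5 were missing from DelCBS7-10 (13.5%, 4.54 to 28.8%), beside 17.5%. All 6 intervals hold the share of the whole list, so no difference from the genome could be seen at this number of peaks.

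**Figure D3:**
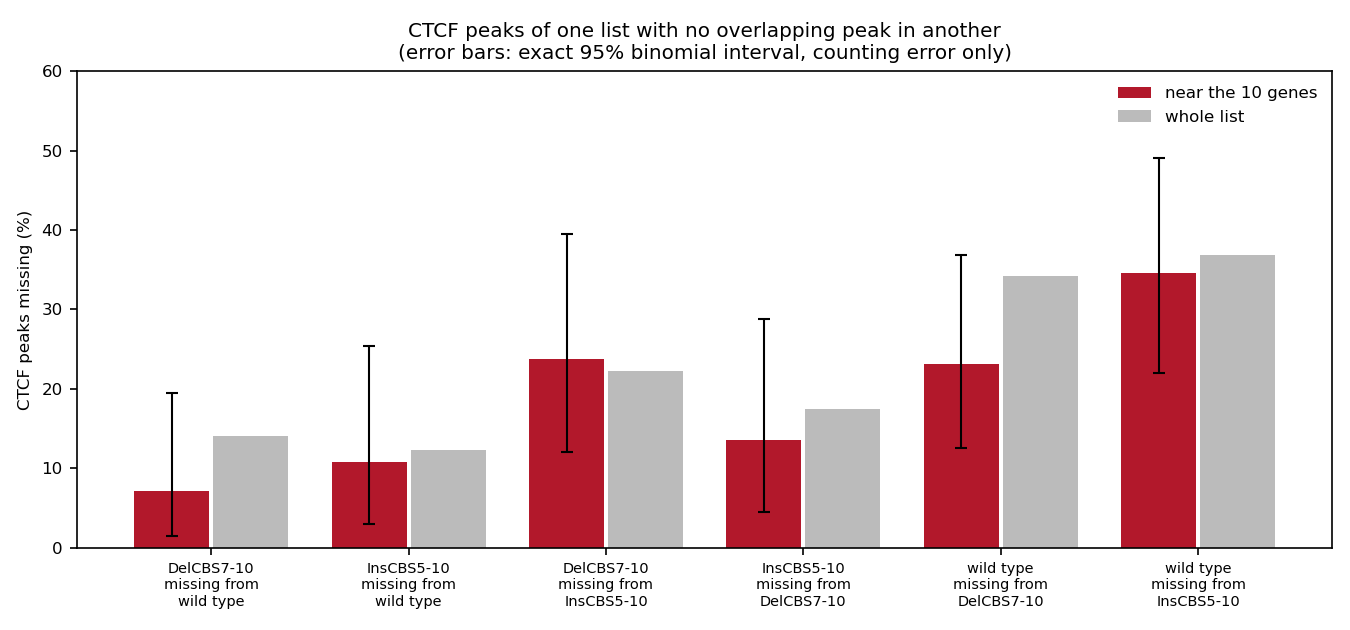
Percentage of CTCF peaks of a list that had no overlapping peak in a second list, for peaks near the 10 genes (red) and for the whole list (grey). Error bars are exact 95% binomial intervals, which cover counting error only, and each contains the share of the whole list, for instance 7.14% near the genes and 14.0% overall for DelCBS7-10 peaks missing from wild type.

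RAD21 overlapped 21 of the 37 InsCBS5-10 CTCF peaks near the 10 genes in the same genotype (56.8%, 39.5 to 72.9%), beside 48.2% of the whole list. Of the 31 sites that all 3 genotypes shared, 20 had InsCBS5-10 RAD21 (64.5%, 45.4 to 80.8%), beside 56.7% of the sites that all 3 genotypes shared over the genome. RAD21 of the list without a sample was at 30 of the 31 (96.8%, 83.3 to 99.9%), beside 88.7%. The 11 without InsCBS5-10 RAD21 included the strong Rdh5 site of Gdf11, the nearer of the pair beyond Fgf8, and a Ccnd1 site 31.0 kb from Fgf15. Wild-type CTCF peaks overlapped the RAD21 list without a sample at 44 of 52 (84.6%, 71.9 to 93.1%), beside 68.7% of the whole list. The lower end of that interval, 71.9%, is above the 68.7% of the whole list, but no sample label backs this RAD21 list. The interval treats neighbouring peaks as independent, although many lie at the same loci, and the shares compared here were not corrected for their number. The whole list was also not limited to peaks near genes. A difference from the genome is therefore not settled by this share. RAD21 away from CTCF was seen at 4 of 26 InsCBS5-10 RAD21 peaks (15.4%, 4.36 to 34.9%), beside 15.2% of that list. In the list without a sample, 41 of 85 RAD21 peaks overlapped no CTCF peak of any genotype (48.2%, 37.3 to 59.3%), beside 43.2%. These 41 were weak, with a median percentile of 14.3.

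The nearest InsCBS5-10 CTCF peak with RAD21 was then located on each side of each gene, at any distance outside the gene body. The distance was 12 kb in the median over the 20 sides, and 15 of the 20 lay within 50 kb. The nearer of both sides was a median of 4.0 kb away over the 10 genes, beside 28.1 kb over protein-coding genes. The median interval between both flanking sites was 49.2 kb beside 193 kb. Here and below, the protein-coding genes were not matched to the 10 for gene length or gene density, and neighbouring Fgf genes shared flanks. With a −log10 q of 5 or more, the median over the 20 sides was 45.2 kb. The flanking sites of Fgf17 were 6.58 and 3.47 kb away, and those of Fgf15 were 2.10 and 6.21 kb away, intervals of 16.1 and 12.7 kb. Both depended on the q limit: when the −log10 q of CTCF and RAD21 peaks had to reach 5, the lower-coordinate flanks moved to 86.8 kb at Fgf17 and 50.2 kb at Fgf15, and the intervals grew to 96.3 and 60.8 kb. Wnt3a was flanked at 8.89 and 3.11 kb, which became 611 and 193 kb under the same limit. Wnt8a was flanked at 4.04 and 24.9 kb, and kept both flanks and its interval of 34.6 kb. Fgf3, Fgf8 and Gdf11 each had a site 3.01, 4.76 and 3.96 kb away on the higher-coordinate side, and another much farther off, at 40.6, 86.3 and 34.9 kb on the lower-coordinate side. In wild type paired with the RAD21 list without a sample, the lower-coordinate flanks of Fgf8, Gdf11 and Fgf15 were nearer, at 42.2, 14.3 and 0.535 kb.

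At the authors' q threshold, the longest intervals were those of Wnt5a and Rspo3. The flanking CTCF-RAD21 sites of Wnt5a were 203 kb away in Erc2 and 563 kb away in Cacna2d3, an interval of 789 kb that held 1 other whole protein-coding gene, Lrtm1. Those of Rspo3 were 114 kb away in Echdc1 and 268 kb away, an interval of 465 kb with 2 other genes, Rnf146 and Gm30698. These are also the members with such a site inside the gene. In wild type paired with the RAD21 list without a sample, the higher-coordinate flank of Wnt5a was 431 kb away and the lower-coordinate flank of Rspo3 58.0 kb away, and neither interval held another whole protein-coding gene. With a −log10 q of at least 5, the lower-coordinate flank of Rspo3 was 246 kb away. In InsCBS5-10, the intervals of the other 8 genes held no other whole protein-coding gene. The Cacna2d3 site was strong in each list, with a CTCF fold of 7.81 in DelCBS7-10 (percentile 86.4), 10.6 in InsCBS5-10 (96.8) and 12.8 in wild type (94.6), and a RAD21 fold of 10.1 in InsCBS5-10 (89.3). The Echdc1 site had strong CTCF, at percentile 98.1 in InsCBS5-10, but RAD21 at percentile 6.6.

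The lower-coordinate flank of Fgf8 was the strongest of all flanking sites. It lies at chr19:45649981-45650258 inside Fbxw4, a neighbouring gene whose mouse locus is known to hold Fgf8 enhancers. Its CTCF fold was 18.8 in DelCBS7-10 (percentile 99.8), 17.6 in InsCBS5-10 (99.8) and 18.98 in wild type (99.7). RAD21 in InsCBS5-10 had a fold of 18.9 there (99.7), while the RAD21 list without a sample had a fold of 3.10 (20.7). It thus ranked at percentile 99.7 or above in all 4 labelled lists.

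Neighbouring genes shared flanks. The site between Fgf3 and Fgf4 flanked both, and a site at chr7:144894351-144894822 flanked both Fgf4 and Fgf15, so the 20 sides were 18 distinct sites. Of these 18, 17 were called in all 3 genotypes, and the exception was the weak lower-coordinate flank of Fgf3, called in InsCBS5-10. That flank lay next to the site at chr7:144798272-144798736, which was called in all 3 genotypes. Over the genome, 16619 InsCBS5-10 CTCF peaks overlapped RAD21 of InsCBS5-10, and 15586 joined sites of all 3 genotypes did. Peaks and joined sites are unlike units, so these counts give no exact share to set beside the 17. The 17 are not read as particular to these genes. In wild type paired with the RAD21 list without a sample, the median distance was 9.34 kb, and the nearer side was 3.77 kb away over the 10 genes beside 12.6 kb over protein-coding genes. The median interval there was 42.0 kb beside 110 kb.

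A CTCF-RAD21 site of InsCBS5-10 lay in the gene or within 5 kb of it for 9 of the 10 genes, beside 34.5% of protein-coding genes. Fgf4 was the exception, with its nearest site 15.0 kb away. The wild-type CTCF list paired with the RAD21 list without a sample also gave 9 of 10, beside 55.5%. The limit of 5 kb was chosen after the distances were seen, and Fgf3, Fgf4 and Fgf15 lie next to each other. These counts are therefore descriptions, and no interval is given for them. They hung on that limit, since within 2 kb the count was 2 of 10, beside 28.3% of protein-coding genes, and within 10 kb it was 9, beside 42.2%. When the −log10 q had to reach 5, 7 of 10 genes had such a site within 5 kb, beside 28.8%.

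**Figure D4:**
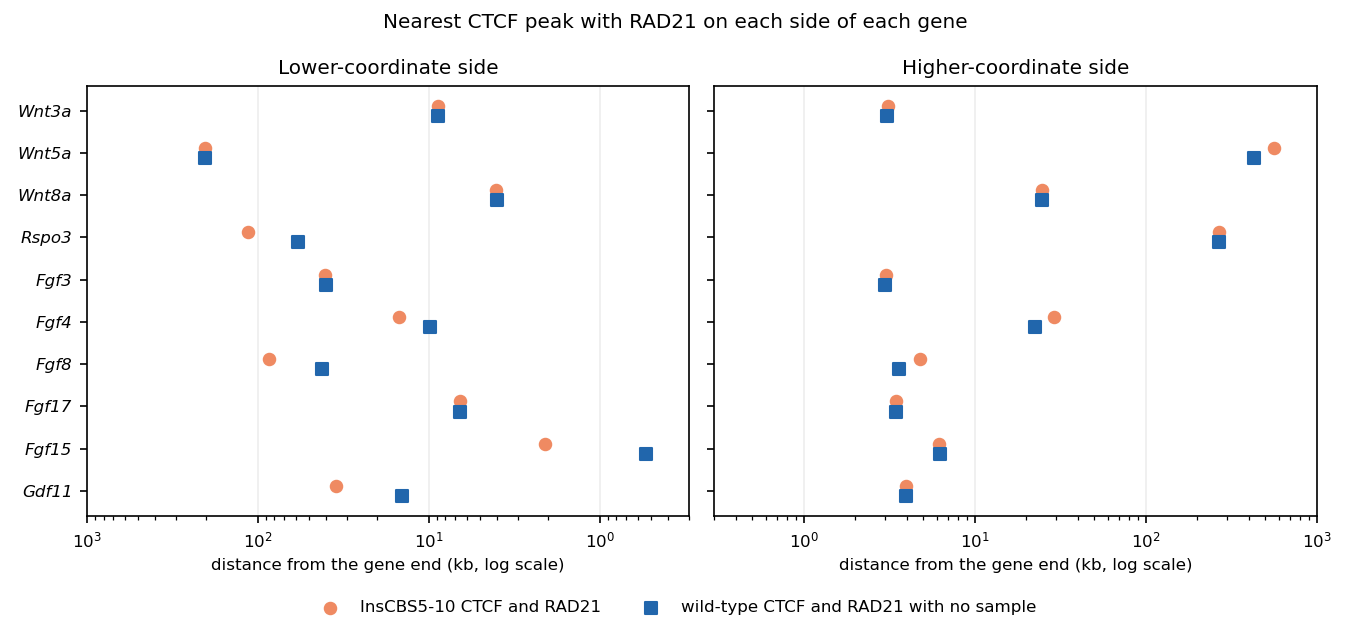
Distance in kb (log scale) from each end of each gene to the nearest CTCF peak that overlaps RAD21, on the lower-coordinate side (left) and the higher-coordinate side (right). Circles pair InsCBS5-10 CTCF with InsCBS5-10 RAD21, and squares pair wild-type CTCF with the RAD21 list that has no sample. Wnt5a is farthest from both flanks, at 203 and 563 kb in InsCBS5-10, and Fgf15 is close to both, at 2.10 and 6.21 kb. Sites inside a gene body are not drawn, and Wnt5a and Rspo3 each hold 1 in InsCBS5-10.

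Receptors, transducers, targets, inhibitors and further ligands of the same pathways were counted from a list of names chosen for their roles. Of these, 67 genes could be measured. A CTCF peak within 50 kb was called in all 3 genotypes for 62 of the 67 (92.5%), beside 82.3% of protein-coding genes. A RAD21 peak in InsCBS5-10 was called for 59 (88.1%, 77.8 to 94.7%), beside 75.8%. The names were chosen with earlier results of these data known and are not a random draw of genes. The interval covers counting error only, so a difference from the genome is not settled by these shares. All 5 Fgf receptor genes on the list, counting the co-receptor gene Klb, all 7 transducers and targets of Wnt, and all 3 other R-spondins had a CTCF peak in all 3 genotypes. Of the Wnt receptors and modulators, 17 of 18 did, and of the receptors, partners and inhibitors of Gdf11, 11 of 12. All 5 other Wnt ligands did as well. The counts were 6 of 7 for Fgf targets and inhibitors, 5 of 6 for Wnt inhibitors and 3 of 4 for other Fgf ligands. Sfrp1, a secreted Wnt inhibitor, had none in any genotype.

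Calls differed between genotypes at 4 of the 67 genes (5.97%, 1.65 to 14.6%), beside 8.69% of protein-coding genes. Fzd1, a Wnt receptor, and Fgf5, an Fgf ligand, each had 1 CTCF peak in wild type and none in either mutant. Fst, whose product follistatin binds activins and Gdf11, had 2 in wild type and none in either mutant. Dusp6, an Fgf target that dampens MAP kinase signalling, had none in DelCBS7-10, 1 in InsCBS5-10 and 1 in wild type. None of these 4 had a RAD21 peak within 50 kb in InsCBS5-10, beside 75.8% of protein-coding genes that had one. Fzd1, Fgf5 and Fst had no CTCF peak there in InsCBS5-10 either, and only 15.2% of InsCBS5-10 RAD21 peaks lay away from CTCF. The RAD21 list without a sample had 1 peak near Fzd1, 3 near Fgf5, 5 near Fst and 6 near Dusp6. In that list, 91.3% of protein-coding genes had a peak.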

How the data were processed

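ChIPmentation of CTCF and RAD21 was read from the deposited peak lists, 1 per library, for 4 labelled libraries. Per the submitters' processing notes, the authors used cutadapt 4.1, MACS2 2.2.7.1 and the mm10 build. For the aligner, the control and the caller's options, the sources used here give nothing. Deposited fold enrichment, a ratio, sets the signal against local background of the library, and the deposited −log10 q is at least 1.30 in every list. Both are the authors' values, with no common scale between lists. Folds of several lists stand side by side as descriptions, and lists were compared by calls and percentiles. Depth is unknown, and 1 list (RAD21) has no sample.

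Peaks of the autosomes (1 to 19) and of X and Y entered, and summits sharing an interval were collapsed to the strongest. The HoxB-deleted version of chromosome 11 was left out, as were genes within 50 kb of Hoxb13 or beyond it on that chromosome, among them 5 names of the pathway list. Gene positions came from RefSeq on GRCm38.p6. Peaks were matched by 1 bp of overlap, and distances run from a summit to the nearer gene end. Python 3.11.15 with pandas 2.3.3, numpy 2.4.6 and scipy 1.17.1 was used. Overlap and flank functions were tested on simulated data. All 10 genes are named, with the neighbours of their sites and the pathway genes whose calls differed, to which Sfrp1 was added after its values were seen. Genes and lists were chosen with earlier results of these data known. Alternatives were other windows, overlap rules and q limits, and leaving out Wnt3a or the RAD21 list without a sample. No genome sequence was used, so motifs at peaks were not read.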

Additional observations from a re-analysis of the deposited data

How the results depend on the processing

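Of 75 recomputed values, 59 stayed within 1.5 times the reported value and 16 did not. With a window of 20 kb, sites of all 5 lists fell to 63, against 97 at 50 kb, sites called in all 3 CTCF lists to 18, against 31, and wild-type peaks missing from DelCBS7-10 to 7, against 12. With peaks of a −log10 q of 5 or more, sites of all 5 lists numbered 61, InsCBS5-10 peaks missing from DelCBS7-10 were 2, against 5, those missing from wild type were 1, against 4, and the median flank distance was 45.2 kb, against 12 kb. Matching by summits within 100 bp gave 6 DelCBS7-10 peaks missing from wild type, against 3, 9 InsCBS5-10 peaks missing from DelCBS7-10 and 7 missing from wild type. Overlap of 50% of both peaks gave 11 DelCBS7-10 and 10 InsCBS5-10 peaks missing from wild type, and 21 wild-type peaks missing from DelCBS7-10. Without Wnt3a, 3 InsCBS5-10 peaks were missing from DelCBS7-10. Without the RAD21 list that has no sample, sites numbered 58. A limit of 2 kb, added after the data were seen, left 2 genes with a CTCF-RAD21 site, against 9 at 5 kb. The cause of these shifts was not tested, beyond fewer peaks entering under the narrower window, the q limit and the lists left out. The other values, including the 10 genes with CTCF in all 3 genotypes and the 62 pathway genes, moved by less. No paired analysis was possible because there was 1 library per group.

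Peak lists without read counts cannot separate lost binding from lower depth, and the wild-type CTCF list was longer than both mutant lists. The small number of peaks near the 10 genes left wide intervals.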
